A study of Mus musculus with 8 samples.

Results

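The tripartite motif (Trim) genes encode a large family of proteins that share a RING finger, B-box zinc fingers and a coiled coil, and differ mainly in the domain that follows these. The array carried 88 probes for 61 genes whose name in the array files was Trim followed by a number and at most 1 letter. Of these, 42 genes (57 probes) were kept because a probe stood well above background on 4 or more of the 8 arrays, and 19 were not. The kept members were split into 9 genes known to be induced by interferon (Trim5, Trim12a, Trim14, Trim21, Trim25, Trim26, Trim30a, Trim34a and Trim56) and 33 others. The file names Trim12, Trim30 and Trim34 are given here by their current symbols Trim12a, Trim30a and Trim34a.

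The 8 samples were ovarian tumours, 1 per mouse, from female mice of the genotype C57BL/6JTgMISIIR-TAg. All 8 animals, in both groups, carry the transgene, in which the Amhr2 promoter (receptor for Müllerian inhibiting substance, MISIIR) drives SV40 T antigen in the reproductive tract, so the tumours model ovarian cancer started by a viral oncoprotein. Tumours had reached about 500 mm3. The control group of 4 mice received the vehicle alone, which was hypermellose with Tween 80, and the other group of 4 mice received AZD1480 in that vehicle at 30 mg/kg. AZD1480 is a small-molecule inhibitor of the kinases JAK1 and JAK2. Tumour tissue was taken 6 h after treatment, and its total RNA was measured on Agilent mouse arrays with the single dye Cy3. The title of the study places the comparison in the question of how blocking JAK and STAT3 signalling affects ovarian carcinoma.

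Many Trim proteins are ubiquitin ligases, and a subset of the genes is transcribed in response to interferon. Interferon receptors signal through JAK kinases, and the promoters of many interferon-induced genes hold a short sequence called the interferon-stimulated response element. The interferon-inducible members serve in antiviral defence: Trim25 activates the RNA sensor RIG-I (gene Ddx58), Trim21 is a cytosolic antibody receptor, and Trim5 belongs to a family branch that recognises retroviral capsids.

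The 8 arrays lay on 2 slides, each scanned on its own, with 2 vehicle and 2 AZD1480 tumours on each slide (replicates 1 and 2 on slide 1, replicates 3 and 4 on slide 2). Slide 1 was the brighter (75th percentile of processed intensity 4706 to 5795 per array, against 1587 to 2783 for slide 2), and 66.9% to 76.4% of an array's spots were well above background. Levels below are log2 processed intensities minus the 75th percentile of the array, so that 0 is the intensity of that percentile, and differences are AZD1480 minus vehicle on the log2 scale. All 11 epithelial tumour markers on the list were measured. Their summed level varied widely between tumours (array means of -1.06 to 1.04 relative to the vehicle mean in vehicle, -1.29 to -0.19 in AZD1480). AZD1480 replicate 1 stood apart: its ciliated-cell markers averaged -6.19 relative to the vehicle mean, against -0.12 to -0.04 in the other AZD1480 tumours. The main results below are also given without this tumour.

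The promoters of the interferon-inducible members are shown first, to show which of them hold the response element in the bases around the start. RefSeq promoter windows of 300 bases (GRCm38.p6, 250 bases before to 50 after a transcript start) were found for 31 of the 42 kept members. They were searched on both strands for the core of the interferon-stimulated response element, GAAA followed after any 2 bases by another GAAA (the GAAA pair), and for TTCNNNGAA, the gamma-activated site. Neither pattern contains the other. Of the 8 interferon-inducible members with a window, 6 held the GAAA pair (75%): Trim5, Trim12a, Trim21, Trim26, Trim30a and Trim34a. Trim25 and Trim56 did not. Of the 23 other members with a window, 1 (Trim2, 4.35%) held it, as did 3.66% of the 13130 tested genes with a window and 3.44% of all 32851 windows.

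A stretch of 80 bases upstream of the start is printed for Trim5, Trim30a and Trim26, and for Trim12c and Trim30d, the neighbouring copies of Trim12a and Trim30a that the array files list under older names. Each stretch is placed so that the match begins at the same position and runs 5′ to 3′ along the gene's strand. The capitals mark the match, which reads as a TTTC pair where the core lies on the opposite strand. The Trim26 stretch lies further upstream, around its 2 overlapping matches, and the Trim30a stretch belongs to the first of its 2 annotated starts, both of which have a match.
Trim5, chr7:104288127-104288206, minus strand: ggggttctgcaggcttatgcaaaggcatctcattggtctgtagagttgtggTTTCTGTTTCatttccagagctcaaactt
Trim12c, chr7:104353350-104353429, minus strand: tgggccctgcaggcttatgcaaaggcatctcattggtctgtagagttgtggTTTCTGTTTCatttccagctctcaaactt
Trim30a, chr7:104465201-104465280, minus strand: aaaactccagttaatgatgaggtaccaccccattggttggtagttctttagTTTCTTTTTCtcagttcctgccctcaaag
Trim30d, chr7:104507862-104507941, minus strand: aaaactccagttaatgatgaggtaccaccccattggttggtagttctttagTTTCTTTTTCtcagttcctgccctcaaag
Trim26, chr17:36836935-36837014, plus strand: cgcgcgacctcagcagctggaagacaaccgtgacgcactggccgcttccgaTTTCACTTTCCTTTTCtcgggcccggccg
The Trim30a and Trim30d stretches were identical at 80 of 80 bases and the Trim5 and Trim12c stretches at 75 of 80, whereas Trim5 and Trim30a shared 36 of 80.

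In 3 further interferon-inducible members the match lay just after the annotated start. The 30 bases around it are shown so that the cores can be compared.
Trim21, chr7:102565447-102565476, minus strand: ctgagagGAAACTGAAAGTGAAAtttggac
Trim34a, chr7:104244457-104244486, plus strand: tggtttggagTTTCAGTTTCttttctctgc
Trim12a, chr7:104315466-104315495, minus strand: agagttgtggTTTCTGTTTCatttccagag
Trim21 holds overlapping cores on the forward strand, and the Trim12a stretch repeats letter for letter a run of the Trim5 promoter. The gamma-activated site pattern was in 0 of the 8 windows of interferon-inducible members and in 2 of the 23 others (Trim45 and Trim46, 8.7%), beside 8.62% of the tested genes. A match is a description of these letters and not evidence of binding.

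**Figure D1:**
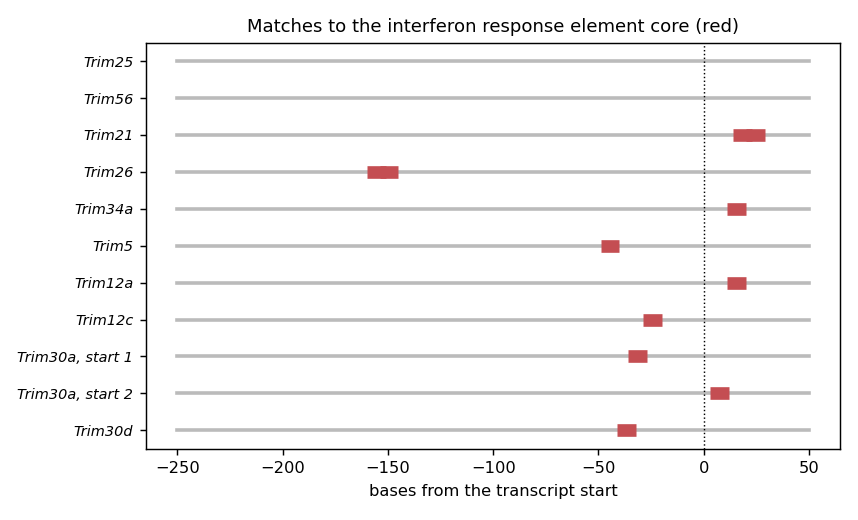
Position of GAAA pair matches on either strand (red) in the 300-base promoter windows of the interferon-inducible Trim genes and of Trim12c and Trim30d (grey lines, bases from the transcript start on the horizontal axis, RefSeq GRCm38.p6). Trim25 and Trim56 show no match, and matches lie within 50 bases of a start in all others drawn except Trim26.

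The interferon-inducible members were lower in AZD1480 tumours as a group, led by Trim25, Trim34a, Trim21 and Trim30a, while the other Trim genes were spread around 0. Of the 9, 8 had a lower mean and 1 (Trim26) a higher mean, with a median difference of -0.40 and a range of -1.50 to 0.01. With a wider interferon list that adds Trim6, Trim35 and Trim69, 9 of 12 were lower and the median was -0.19. The 33 others had 14 lower and 19 higher means and a median of 0.06 (range -2.05 to 0.47), and the median of all 19778 genes tested was 0.04, with 43.5% of genes lower. By limma 0 of the 42 members passed a Benjamini-Hochberg adjusted p under 0.05, as did 0 of all genes (0%), so none of the differences below passed the test over all genes. With each gene read by its brightest kept probe, 3 interferon-inducible members were lower at an unadjusted p under 0.05 (1.74% of all genes). On the same probes 0 members of either class were higher (1.72% of all genes). The count of 3 became 6 without AZD1480 replicate 1, and the 6 were the 3 together with Trim30a, Trim14 and Trim12a.

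Within slide 1 the 9 interferon-inducible members had a median difference of -0.31 and within slide 2 one of -0.40, with 8 of 9 lower on each slide. Across the scalings and filters tried, 8 or 9 of the 9 were lower, and 7 with the other background correction. With 1 tumour left out 7 to 9 were lower. The count was 7 without vehicle replicate 1, without AZD1480 replicate 3 and without AZD1480 replicate 4. Their mean level relative to the vehicle mean was 0.22, -0.06, -0.10 and -0.06 in the 4 vehicle tumours and -0.17, -0.64, -0.48 and -0.57 in the 4 AZD1480 tumours. Every AZD1480 tumour was below every vehicle tumour on this mean, and AZD1480 replicate 1 was the nearest to the vehicle group. This separation depended on the list. On the mean of the wider interferon list AZD1480 replicate 1 was at -0.01, inside the vehicle range of -0.16 to 0.16. The difference between the interferon-inducible and the other members was not itself tested.

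**Figure D2:**
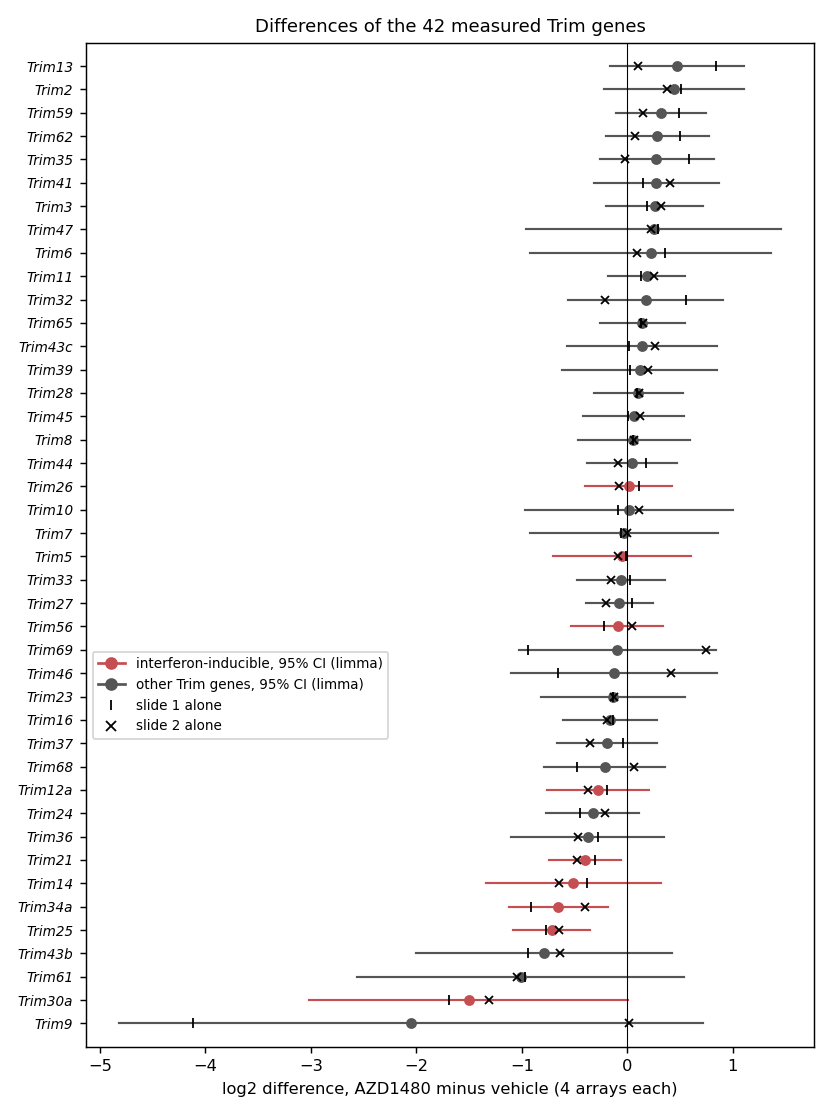
Log2 differences (AZD1480 minus vehicle, 4 arrays each; horizontal axis) of the 42 kept Trim genes, ranked, with limma 95% confidence intervals; red marks interferon-inducible members, black ticks and crosses the values within slide 1 and slide 2. Of the 9 red intervals, those of Trim25, Trim34a and Trim21 lie wholly below 0; Trim9 shows the widest interval and values of -4.12 and 0.02 within the slides.

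Trim25 attaches ubiquitin to RIG-I and can also attach the ubiquitin-like modifier Isg15. Its probe lies at chr11:88881521-88881580 on the mm9 build, plus strand. The levels were 2.90, 2.96, 2.94 and 3.10 in the vehicle tumours and 2.01, 2.31, 2.52 and 2.21 in the AZD1480 tumours. The groups did not overlap, a separation in this direction that 1.41% of all genes showed. The difference was -0.71 ± 0.16 (SE, n = 4 per group; 95% confidence interval -1.08 to -0.35), a 1.64-fold lower level, with an unadjusted limma p = 0.00207, an adjusted p = 0.974 and an exact permutation p = 0.0286. The permutation test was two-sided, and 0.0286 is the smallest p that the 70 splits of 4 against 4 allow. Trim25 ranked 34 by p among all genes, and its difference was -0.77 within slide 1 and -0.65 within slide 2.

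Trim34a, an interferon-induced relative of Trim5, was read by a probe at chr7:111410513-111410572 (mm9, plus strand). The vehicle levels were 0.02, 0.34, -0.42 and -0.26, and the AZD1480 levels were -0.84, -0.63, -0.92 and -0.55. All AZD1480 tumours were below all vehicle tumours, although the gap between the groups was narrow. The difference was -0.66 ± 0.20 (SE, n = 4 per group; interval -1.12 to -0.18; 1.57-fold lower), with an unadjusted limma p = 0.0125, an adjusted p = 0.974 and an exact permutation p = 0.0286. A second, dimmer Trim34a probe was also lower, by a smaller difference of -0.29, but its groups overlapped. On it AZD1480 replicate 4 (-4.35) was above all vehicle tumours (-4.85 to -4.44). The slides gave -0.91 and -0.40.

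Trim21 binds antibody-coated particles in the cytosol and marks them for degradation. Its probe is at chr7:109706478-109706537 (mm9, minus strand). Levels were -0.11, -0.17, -0.17 and -0.25 in vehicle and -0.42, -0.48, -0.54 and -0.85 in AZD1480. Vehicle tumours were tightly grouped, with an SD of 0.057, and every AZD1480 tumour was lower. The difference of -0.40 ± 0.15 (SE, n = 4 per group; interval -0.74 to -0.06; 1.32-fold lower) had an unadjusted limma p = 0.0279, an adjusted p = 0.974 and an exact permutation p = 0.0286. Its unadjusted p was under 0.05 in 11 of the 19 alternatives and reached 0.261 in the others. For Trim25 it was under 0.05 in 19 of 19 and for Trim34a in 18 of 19.

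Trim30a, which restrains Toll-like receptor signalling in mouse macrophages, had the largest difference of the 9 and the largest spread. Vehicle levels were -1.07, -2.09, -1.42 and -1.87, and AZD1480 levels were -1.60, -4.95, -2.74 and -3.18. The tumour of AZD1480 replicate 1 lay inside the vehicle range and the other 3 lay below it. The difference was -1.50 ± 0.65 (SE, n = 4 per group; interval -3.02 to 0.01; 2.84-fold lower), with an unadjusted limma p = 0.0512, an adjusted p = 0.974 and an exact permutation p = 0.0857. Without AZD1480 replicate 1 it was -2.01, with an unadjusted p = 0.00748 and an adjusted p = 0.993. Without AZD1480 replicate 2 it was -0.89, with an unadjusted p = 0.0803 and an adjusted p = 0.923.

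Trim14, an adaptor that works with the mitochondrial protein Mavs, showed a like arrangement of tumours. Its levels were -0.55, -1.63, -1.43 and -1.11 in vehicle and -0.79, -2.14, -1.86 and -1.97 in AZD1480, a difference of -0.51 ± 0.36 (unadjusted limma p = 0.192, exact permutation p = 0.229). AZD1480 replicate 1 was again inside the vehicle range with the other 3 below it, and leaving it out gave -0.81 (unadjusted p = 0.0197, adjusted p = 0.996). Without vehicle replicate 1 it was -0.30 (unadjusted p = 0.427, adjusted p = 0.977). A second Trim14 probe, well above background on 6 of the 8 arrays, went the other way (0.22), so the direction for this gene differed between probes, and the mean of both probes gave -0.15.

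Trim12a, a mouse relative of Trim5, had levels of 1.47, 1.74, 1.26 and 1.37 in vehicle and 1.65, 1.18, 0.94 and 0.96 in AZD1480. The difference was -0.28 ± 0.21 (unadjusted limma p = 0.222, exact permutation p = 0.171), and -0.43 without AZD1480 replicate 1 (unadjusted p = 0.0353, adjusted p = 0.996). Without vehicle replicate 2 it was -0.18 (unadjusted p = 0.436, adjusted p = 0.994). The second Trim12a probe gave -0.46 (unadjusted p = 0.0392, adjusted p = 0.953, limma over probes). On it AZD1480 replicate 1 was at the vehicle level and the other 3 were below all vehicle tumours.

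The remaining 3 interferon-inducible members showed little difference against their spread. Trim56, a regulator of the DNA-sensing adaptor Sting, had levels of 2.27, 1.91, 1.87 and 1.92 in vehicle and 1.81, 1.92, 1.60 and 2.27 in AZD1480 (-0.09, interval -0.53 to 0.34). Trim5 had -3.80, -4.09, -4.36 and -4.06 against -4.43, -3.48, -3.93 and -4.68 (-0.05, interval -0.70 to 0.60). Trim26, encoded in the major histocompatibility complex region, had 1.21, 0.78, 1.14 and 0.95 against 1.35, 0.86, 0.91 and 1.02 (0.01, interval -0.40 to 0.42). The groups overlapped in all 3 genes, and the intervals include 0 and reach -0.40 to -0.70 on the lower side. The sign of Trim26 turned under median scaling and quantile normalization, and that of Trim5 with another background correction.

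**Figure D3:**
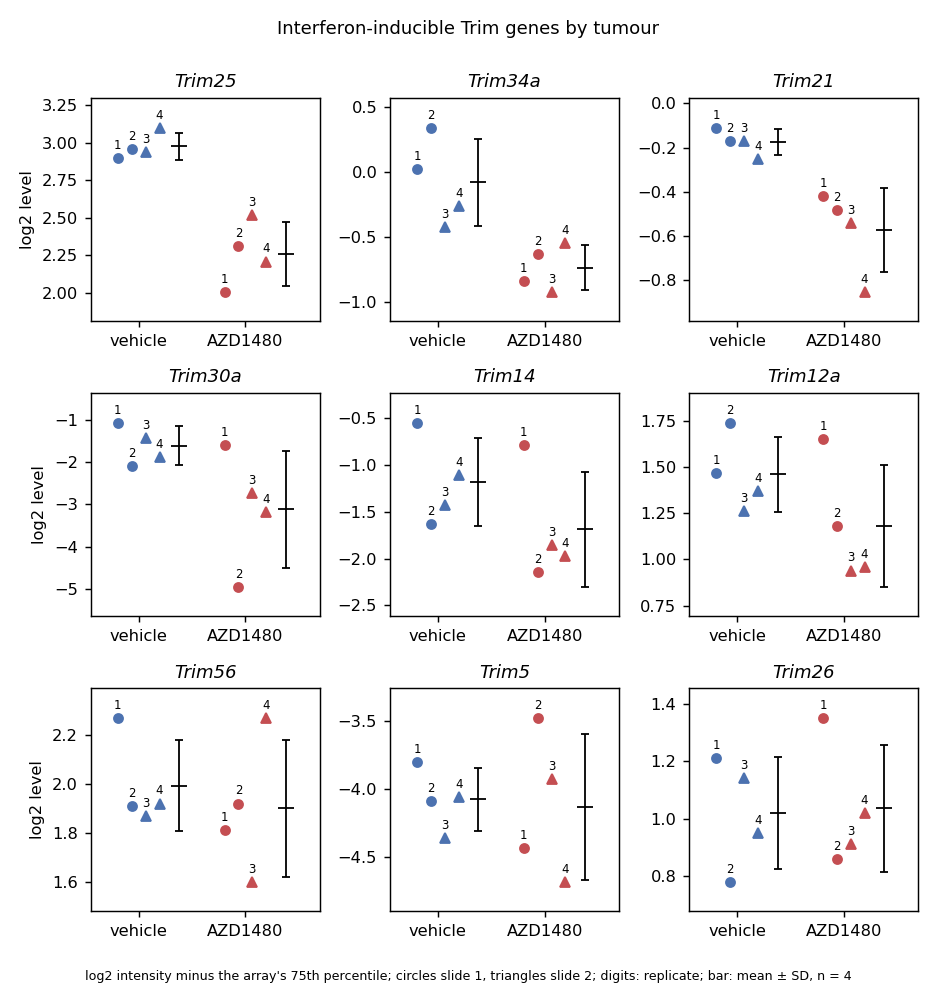
Log2 level (intensity minus the array's 75th percentile; vertical axes differ between panels) of the 9 interferon-inducible Trim genes in each of 4 vehicle (blue) and 4 AZD1480 (red) tumours, with the replicate number, the slide (circle 1, triangle 2) and mean ± SD. In Trim25, Trim34a and Trim21 the groups are apart; in Trim30a, Trim14 and Trim12a AZD1480 replicate 1 lies with the vehicle tumours.

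The response element core was present in members with large and in members with small differences. The 6 members with a match in the window ranged from -1.50 (Trim30a) and -0.66 (Trim34a) to -0.05 (Trim5) and 0.01 (Trim26). Of those without a match, Trim25 was at -0.71 and Trim56 at -0.09. Trim5 and Trim12c, with 75 of 80 promoter bases in common, had differences of -0.05 and -0.27 (interval -0.78 to 0.24 for Trim12c), and the intervals overlapped.

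Trim34a, Trim5, Trim12a and Trim30a sit in a gene cluster on chromosome 7 whose probes span 244 kb (chr7:111376674-111620864, mm9), in the order Trim6, Trim34a, Trim5, Trim12a, Trim12c, Trim30b, Trim30a and Trim30d. Trim6, which is not on the interferon list, was at 0.22 ± 0.49, the only kept gene of the cluster with a higher mean. The Trim30b probe was well above background on 0 of the 8 arrays. Trim30d, which shares its 80 promoter bases with Trim30a, had levels of -0.89, -2.09, -1.80 and -2.26 in vehicle and -1.48, -4.91, -3.19 and -3.36 in AZD1480. Its difference of -1.47 ± 0.68 (unadjusted limma p = 0.063, adjusted p = 0.974, exact permutation p = 0.114) and its order of AZD1480 tumours were close to those of Trim30a. It was -2.06 without AZD1480 replicate 1 and -0.92 without AZD1480 replicate 2. These genes are close copies, and whether each probe reads only 1 of them was not tested, so Trim30a and Trim30d are not counted as independent observations.

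A list of 15 genes that work with Trim25 and Trim21 was measured in full. Of these, 11 had lower and 4 higher means, with a median of -0.18, and 7 were lower at an unadjusted p under 0.05 by limma, beside 1.74% of all genes. In 6 of the 15 the groups did not overlap (1.41% of all genes), and 0 passed after adjustment. The 7 were the RNA sensors Ddx58 (-0.82 ± 0.33) and Ifih1 (-1.16 ± 0.31), the ubiquitin-like protein Isg15 (-2.01 ± 0.54), its conjugating enzyme Ube2l6 (-0.55 ± 0.14), its ligase Herc6 (-0.66 ± 0.14), its protease Usp18 (-2.43 ± 0.75) and the transcription factor Irf7 (-2.39 ± 0.72). The signalling adaptor Mavs (0.16 ± 0.22) and the constitutive factor Irf3 (0.06 ± 0.13), which act downstream of the sensors, were among the 4 with higher means.

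AZD1480 replicate 1 took different places among these genes. Isg15 was at 3.48, 3.76, 3.66 and 4.04 in vehicle and -0.02, 2.04, 2.41 and 2.47 in AZD1480. Irf7 was at -1.30, -1.80, -1.75 and -0.38 in vehicle and -5.60, -4.03, -2.19 and -2.96 in AZD1480. That tumour was the lowest of all 8 for Isg15, Irf7, Usp18, Ifih1 and Ddx58, and also for Trim25. The same tumour was not the lowest of the AZD1480 group for Herc6 (-3.14, group range -3.39 to -3.14) or Ube2l6 (0.96, group range 0.66 to 0.98). For Trim30a, Trim14 and Trim12a it was the highest of the 4 AZD1480 tumours, as it was for Trim21 (-0.42) and Trim26 (1.35). Without it Isg15 was at -1.43 and Irf7 at -1.75, and Trim25 at -0.63.

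**Figure D4:**
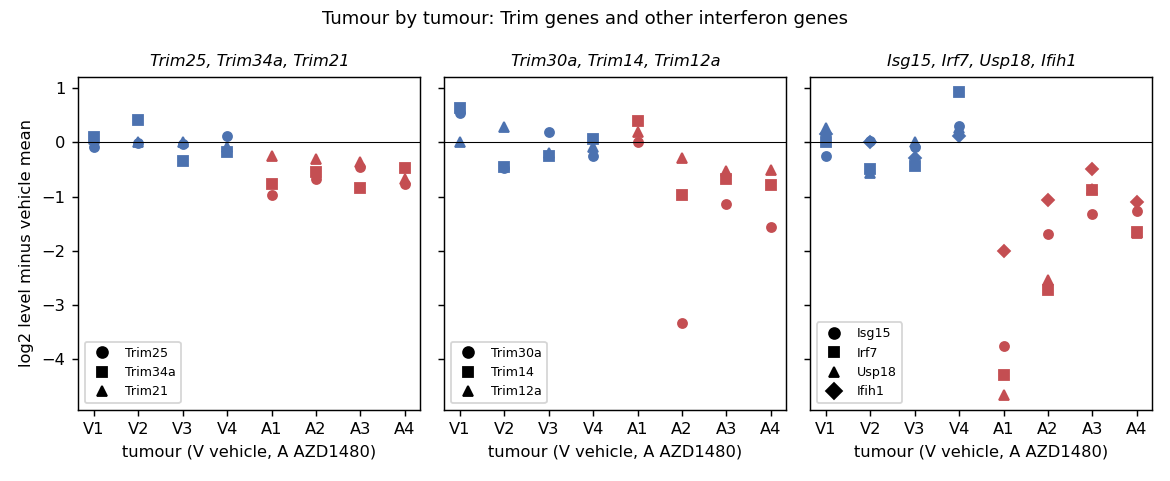
Log2 level minus the mean of the 4 vehicle tumours (vertical axis) in each tumour (V1 to V4 vehicle, blue; A1 to A4 AZD1480, red) for Trim25, Trim34a and Trim21 (left), Trim30a, Trim14 and Trim12a (middle) and Isg15, Irf7, Usp18 and Ifih1 (right). In A1 the right-hand genes are at their lowest, while the middle genes are at the vehicle level. Ddx58, Herc6 and Ube2l6 are not drawn.

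Markers of some cell types were lower along with these genes, and those of others were mixed or higher. Of 15 macrophage and monocyte markers 13 were measured and 12 were lower (43.5% of all genes), 3 of them at an unadjusted p under 0.05 (1.74% of all genes), with a median of -0.69. Their array means relative to the vehicle mean were -0.13 to 0.20 in vehicle and -1.83, -0.50, -0.06 and -0.44 in AZD1480. The 3 at an unadjusted p under 0.05 were Fcgr3 (-0.92), Fcgr1 (-1.39) and Mrc1 (-1.04). The defining markers Csf1r (-0.34), Cd68 (-0.38) and Adgre1 (-0.44), measured on all 8 arrays, were lower by less than the median. Their unadjusted limma p was 0.333 to 0.429. Itgam was at 0.09, and Cd163 was well above background on 0 arrays. The T and NK cell list had 3 lower and 3 higher means. It was at -1.0 in AZD1480 replicate 1 and at -0.17 to 0.05 in the other 3. The epithelial tumour markers were lower in 11 of 11 (median -0.74, 1 at an unadjusted p under 0.05) and the ciliated-cell markers in 6 of 6 measured (median -1.44). Most measured markers were higher for dendritic cells (4 of 5, median 0.32), erythroid cells (4 of 5, 0.31) and neural cells (3 of 4, 0.15). On none of these lists were all AZD1480 tumours above the vehicle mean. The AZD1480 array means were -0.82, 0.12, 0.28 and 1.08 for dendritic cells and 2.37, -0.38, -0.29 and -0.30 for erythroid cells. For neural cells they were 0.14, -0.13, -0.33 and 0.87. The B cell (2 of 4 lower), striated muscle (7 of 12), endothelial (4 of 6) and fibroblast (5 of 7) lists held means in both directions. AZD1480 replicate 1 was the lowest tumour for the macrophage, ciliated-cell, T and NK cell, B cell, dendritic, striated muscle and fibroblast lists. For the erythroid list it was the highest. With it left out Trim34a was at -0.62 and Trim21 at -0.45. In these bulk samples fewer cells of a type and less RNA per cell cannot be told apart, and the part of cell composition in the Trim differences was not tested.

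Among the 33 other members, 0 reached an unadjusted p under 0.05 in either direction on the brightest kept probe of each gene. The second kept Trim3 probe was higher by 0.42, with an unadjusted p = 0.0289 and an adjusted p = 0.953 by limma over probes. The largest differences were those of Trim9, Trim61 and Trim43b on the lower side and Trim13, Trim2 and Trim59 on the higher side, with unadjusted limma p of 0.125 to 0.170 and an adjusted p of 0.974 for each. The 3 lower genes are marked by wide spread between tumours of a group rather than by separation of the groups.

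Trim9, a microtubule-associated ligase best known from neurons, had levels of -3.62, -0.94, -1.21 and -4.28 in vehicle and -6.70, -6.10, -2.58 and -2.87 in AZD1480. Both AZD1480 tumours on slide 1 were below all vehicle tumours and both on slide 2 lay within the vehicle range. The difference of -2.05 ± 1.2 was -4.12 within slide 1 and 0.02 within slide 2, and the second kept Trim9 probe gave -0.45. Without AZD1480 replicate 1 it was -1.34. The epithelial tumour list was at 1.04, -1.06, 0.70 and -0.68 in vehicle and -1.28, -1.29, -0.19 and -0.29 in AZD1480, so it was low with Trim9 in AZD1480 replicates 1 and 2 but also low in vehicle replicate 2, which had the highest Trim9. Its part in the Trim9 value was not tested. The 2 other microtubule-binding members, Trim36 (-0.38 ± 0.31) and Trim46 (-0.13 ± 0.42), had lower means, but not in every tumour or slide. In Trim36, 2 AZD1480 tumours lay below and 2 above all vehicle tumours. Trim46 was at -0.66 within slide 1 and 0.41 within slide 2.

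Trim61 was well above background on 4 vehicle and 2 AZD1480 arrays and Trim43b on 4 and 3, so both were near the limit of detection. Trim61 had levels of -5.75, -5.16, -3.88 and -7.04 in vehicle and -5.96, -6.89, -7.28 and -5.75 in AZD1480 (-1.01 ± 0.67). Trim43b had -4.20, -4.99, -5.34 and -5.83 against -5.96, -5.12, -7.18 and -5.27 (-0.79 ± 0.52). The groups overlapped in both genes. Trim61 was -0.49 without vehicle replicate 3 and -1.54 without vehicle replicate 4, and Trim43b was -0.36 without AZD1480 replicate 3 and -0.49 without vehicle replicate 1.

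Trim13, anchored in the endoplasmic reticulum membrane and involved in its protein degradation, was at -1.60, -1.50, -1.45 and -1.36 in vehicle and -0.17, -1.24, -1.31 and -1.29 in AZD1480. On the brightest kept probe of each gene it was the only member of which all AZD1480 tumours lay above all vehicle tumours. Such a separation was shown by 1.21% of all genes, but 3 of the 4 Trim13 values lay just above. The difference of 0.47 ± 0.27 (unadjusted limma p = 0.125, exact permutation p = 0.0286) was 0.20 without AZD1480 replicate 1. The second Trim13 probe gave 0.45.

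Trim59, the other membrane-anchored member and known from proliferating and tumour cells, was at 2.89, 3.01, 2.89 and 2.78 in vehicle and 3.56, 3.32, 3.14 and 2.82 in AZD1480. The difference was 0.32 ± 0.19 (0.20 without AZD1480 replicate 1), and 3 of the 4 AZD1480 tumours were above all vehicle tumours. A second probe gave 0.31. Trim2, which carries NHL repeats and ubiquitinates neurofilament light chain in neurons, was at 1.17, 0.68, 0.56 and 1.42 in vehicle and 1.00, 1.87, 1.06 and 1.68 in AZD1480 (0.45 ± 0.29, and 0.29 without AZD1480 replicate 2), with overlapping groups. Trim2 is also the 1 member outside the interferon list with a response element core in its window.

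**Figure D5:**
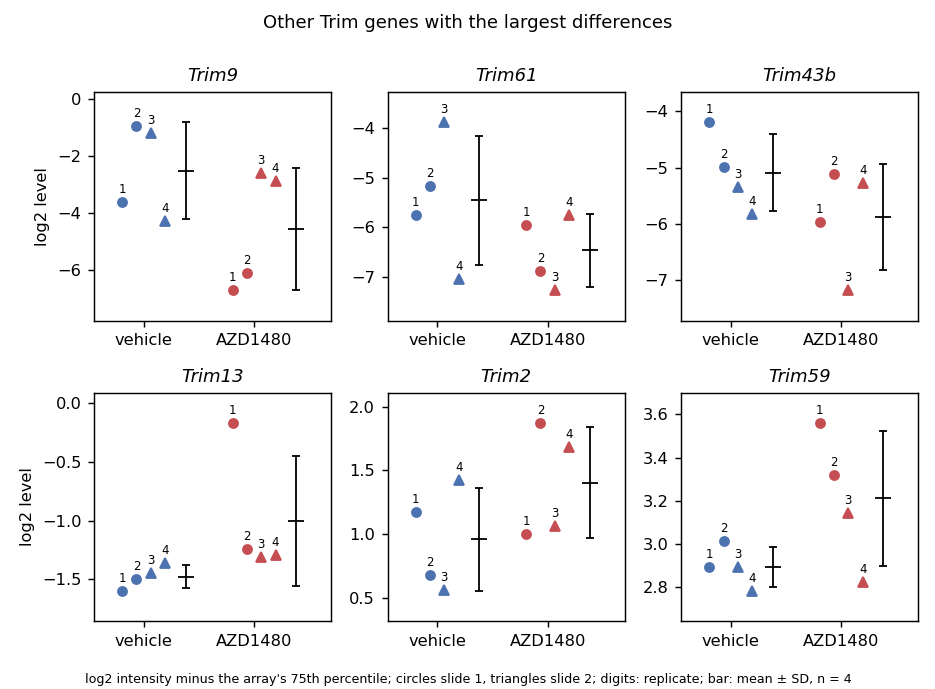
Log2 level (intensity minus the array's 75th percentile; vertical axes differ between panels) of the 3 other Trim genes with the largest difference in each direction, by tumour, with replicate number, slide (circle 1, triangle 2) and mean ± SD (n = 4). Trim9 is lowest in AZD1480 replicates 1 and 2, and the Trim13 difference comes mainly from AZD1480 replicate 1 at -0.17.

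Most of the smaller differences that follow were not stable. Of the 33 members outside the interferon list, 32 moved by over 1.5 times or changed sign. They did so in at least 1 of the 8 fits that left out a tumour. The same held for 6 of the 9 interferon-inducible members. The exception among the 33 was Trim24, at -0.41 to -0.23 in these fits. The chromatin-bound members carry a PHD finger and a bromodomain. Trim28, the corepressor recruited by KRAB zinc finger proteins, was at 0.10 ± 0.18, Trim33, a regulator of Smad4, at -0.06 ± 0.18 and Trim24, a nuclear receptor cofactor, at -0.33 ± 0.19. Both Trim24 probes were lower (-0.33 and -0.25), and the intervals of all 3 genes include 0. The 3 measured NHL-repeat members had higher means, with Trim3 at 0.26 ± 0.20 (0.14 without AZD1480 replicate 1) and Trim32, mutated in a limb-girdle muscular dystrophy, at 0.18 ± 0.32 beside Trim2. In Trim32, AZD1480 replicate 1 was at 2.94, while the other 3 AZD1480 tumours were at 1.64 to 1.68, within the vehicle range of 1.53 to 1.96.

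Trim8, Trim16, Trim44, Trim47, Trim62 and Trim65, a mixed group of 6, had 5 higher means and 1 lower mean, ranging from -0.16 to 0.28. They include Trim8, described as a partner of the JAK inhibitor protein Socs1 (0.06 ± 0.23), Trim65, which activates the RNA sensor encoded by Ifih1 (0.14 ± 0.17), and Trim44, which lacks the RING finger (0.04 ± 0.18). Trim23, with an ARF GTPase domain, was at -0.14 ± 0.29, Trim37, with a MATH domain, at -0.20 ± 0.21, and Trim45 at 0.06 ± 0.21. The 11 members left, Trim61 and Trim43b included, had 6 lower and 5 higher means with a median of -0.03. Among them Trim27 was at -0.08 ± 0.14 and Trim11 at 0.19 ± 0.16.

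A second kept probe was present for 15 of the 42 members. Its difference had the same sign in 11, and not in Trim14, Trim16, Trim45 and Trim7. Apart from Trim14, these are genes with a difference of -0.16 to 0.06 on the brighter probe. On the second, dimmer Trim3 probe all AZD1480 tumours (-2.26 to -1.77) lay above all vehicle tumours (-2.43 to -2.27), which was not so on the brighter one.

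The members that were not kept include all 4 muscle Trim genes on the array, Trim54, Trim55, Trim63 and Trim72, of which no probe was well above background on more than 2 arrays. Trim15, Trim29, Trim31, Trim52, Trim63, Trim66, Trim72 and Trim75 were not well above background on any array. At the limit of the rule, Trim10, an erythroid member, was just inside with 4 arrays (2 per group), and Trim42, Trim67 and Trim71 were just outside with at most 3. One Trim71 probe was well above background on 0 vehicle and 3 AZD1480 arrays, and the other on 2 vehicle and 1 AZD1480 array.

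Family members that carry other names were taken from a separate list. Pml, the interferon-inducible organiser of nuclear bodies, was at -0.14 ± 0.17. Mid1 and Mid2, microtubule-associated ligases, were at -0.13 ± 0.51 and 0.23 ± 0.69, and Mefv, the pyrin gene, at 0.14 ± 0.29. None of these 4 had an unadjusted limma p under 0.05.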

How the data were processed

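Spot intensities come from Agilent Feature Extraction 9.5.3, per the submitters' processing notes. The deposited array files give a processed intensity per spot, background-subtracted within the array, per the file headers. A log2 value table of these arrays, deposited by the authors with an offset not given in the sources used here, served as an alternative. Its columns share a median of 8.36 and correlated at 0.984 to 0.990 with the log2 processed intensity. With the log2 mean spot intensity before background subtraction they correlated more closely, at 0.996 to 1.

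Log2 processed intensities were reduced by each array's 75th percentile, and probes well above background on 4 or more arrays were kept. The brightest kept probe stood for a gene. Symbols were updated through RefSeq accessions (GRCm38.p6 gene table); probe positions are those of the files (mm9), and exon or UTR positions of probes were not used here. AZD1480 and vehicle were compared over 19778 genes by limma 3.58.1 (R 4.3.3; lmFit, eBayes, two-sided, no term but treatment) with Benjamini-Hochberg adjustment; the script was tested on simulated data. SEs and 95% intervals are limma's. Tumours came from separate mice, and 4 arrays per group limit the precision. Members and lists were chosen with earlier results of these data known. Every array's value is given for the interferon-inducible members and for other members at an unadjusted p under 0.05. It is also given for the 3 largest differences in each direction among the others. The values of Trim30d, Isg15, Irf7 and the second Trim3 probe were added after they were seen. So were the statements on Trim71, Ddx58, Herc6, Ube2l6, Trim36 and Trim46. Same-numbered tumours correlated at 0.359, 0.356, 0.126 and -0.0592 in their deviations from the group means. Tumours of different numbers correlated at -0.375 to 0.554, so the numbers were not taken as pairs. Alternatives were another background correction, normalization, scaling, filter, probe summary, slide or replicate terms, each slide alone, the deposited table, a wider interferon list and leaving out each array. Promoter windows came from RefSeq.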

Additional observations from a re-analysis of the deposited data

Results flagged for a closer look

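In 84 groups of 4 tumours (42 members, 2 treatments), 6 held a tumour far from the other 3 by Dixon's test at the 95% level, which chance alone passes in about 1 group in 20. In the AZD1480 group, Trim13 was at -0.17 in replicate 1 (the others at -1.31 to -1.24), Trim32 at 2.94 in replicate 1 (1.64 to 1.68) and Trim23 at -4.64 in replicate 4 (-3.70 to -3.59). In the vehicle group, Trim28 was at 2.95 in replicate 2 (3.35 to 3.43), Trim47 at 2.96 in replicate 1 (1.80 to 1.96) and Trim56 at 2.27 in replicate 1 (1.87 to 1.92). AZD1480 replicate 1 accounts for 2 of the 6.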

How the results depend on the processing

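No member passed an adjusted p under 0.05 in any of the 19 alternatives. The number of members lower at an unadjusted p under 0.05 was 3, and 2 to 6 when 1 tumour was left out, with 6 without AZD1480 replicate 1. With a replicate block it was 5, although the numbers were not taken as pairs. The block changed no adjusted call. The number of higher members was 0, 1 with no filter on dim probes, and 0 to 1 with 1 tumour left out. The median of the interferon-inducible members was -0.40, -0.45 to -0.30 with 1 tumour left out, and -0.19 with the wider interferon list. The median of the other members was 0.06, 0.12 with no filter, and 0.00 to 0.12 with 1 tumour left out. Without the filter the median of all genes was 0.101.

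Of the 42 members, 19 kept their sign in every alternative, Trim25, Trim34a, Trim21, Trim30a, Trim14 and Trim12a among them, and 23 did not. The sign turned for Trim10 with the deposited table (-0.055), for Trim16 (0.11) and Trim7 (0.043) with the mean of kept probes, for Trim10 (-0.014) and Trim26 (-0.014) under median scaling, for Trim5 (0.083), Trim69 (0.054) and Trim7 (0.0075) with normexp background, and for Trim10 (-0.017), Trim26 (-0.0096) and Trim44 (-0.0017) under quantile normalization. Within slide 1 it turned for Trim10 (-0.089), Trim27 (0.044) and Trim33 (0.028), and within slide 2 for Trim26 (-0.08), Trim32 (-0.21), Trim35 (-0.023), Trim44 (-0.092), Trim46 (0.41), Trim56 (0.038), Trim68 (0.056), Trim69 (0.75) and Trim9 (0.02). With 1 tumour left out the sign turned for 18 members, over ranges of -0.29 to 0.25 (Trim10), -0.29 to 0.11 (Trim23), -0.093 to 0.077 (Trim26), -0.0057 to 0.19 (Trim28), -0.14 to 0.29 (Trim32), -0.15 to 0.048 (Trim33), -0.11 to 0.31 (Trim39), -0.019 to 0.4 (Trim43c), -0.047 to 0.12 (Trim44), -0.041 to 0.19 (Trim45), -0.49 to 0.26 (Trim46), -0.25 to 0.53 (Trim47), -0.27 to 0.13 (Trim5), -0.22 to 0.0054 (Trim56), -0.14 to 0.53 (Trim6), -0.36 to 0.22 (Trim69), -0.39 to 0.22 (Trim7) and -0.11 to 0.19 (Trim8). The cause was not tested. Signal near background limits Trim61, Trim43b, Trim69 and Trim10, which were not well above background on every array.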
